A study of Mus musculus with 13 samples.

Results

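The genes of 10 hepatic nuclear receptors (Nr1h4, Ppara, Rxra, Nr1i2, Nr1i3, Nr1h3, Nr0b2, Nr5a2, Esrra and Nr1d1) were examined in Hepa 1-6, a mouse hepatoma cell line. They were taken by symbol from GENCODE M1 on mm9, where they are 10 of 22367 protein-coding genes outside the mitochondrial chromosome. For each gene the promoter was the window reaching 250 bp upstream and downstream of the annotated 5′ end, the gene body was the remainder of the gene, and the surroundings were the gene with 50 kb to each side.

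The series holds 13 ChIP-seq samples, of which 8 came with a list of called regions, and the 5 input samples were not analysed here. KAP1 and the histone marks H3K27ac, H3K4me1 and H3K9me3 were mapped in cells grown under standard conditions. PolII and PolIII were mapped 5 days after cells had received either a control shRNA plasmid (control; an empty vector in the study's methods) or an shRNA against KAP1 (Kap1 KD). KAP1 itself was mapped only in standard culture, so the lists hold no measure of the depletion and no KAP1 value for control or Kap1 KD cells. The study asked whether KAP1, a corepressor best known for H3K9me3 at transposons, also sits at active promoters and alters PolII there. Each list is 1 library, so no value has a replicate error, no test between conditions was possible, and sequencing depth is unknown.

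Nuclear receptors are transcription factors, most of which are switched by a small lipid-like ligand. In hepatocytes they sense bile acids, oxysterols, fatty acids and foreign compounds, and many bind DNA paired with the retinoid X receptor. The short DNA word AGGTCA, single or repeated, is the classical recognition half-site of the family. KAP1 is brought to DNA mostly by zinc finger proteins, H3K27ac marks active promoters and enhancers, H3K4me1 marks enhancers and the flanks of promoters, and H3K9me3 marks silent chromatin.

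Some properties of the lists bear on what follows. They held from 431 (PolIII Kap1 KD) to 74014 regions (H3K4me1), with 12470 for KAP1. The PolII list was 2.56 times longer under Kap1 KD (12862 peaks) than in the control (5015). The names of the polymerase peaks run along the genome with at least 22.6% of the running numbers missing. Why numbers are missing was not tested, and for PolII whether any was missing is given with the genes. For PolIII, numbers were missing around 6 of the 8 receptor genes without a control peak in the gene (1 to 4 numbers each) and around 6 of the 10 without one under Kap1 KD (1 to 36), so the lack of a PolIII peak at these genes cannot be told from a number left out. Chromosome 1 held 48.4% of the control PolIII peaks and 6.03% of those under Kap1 KD, against 5.53% of the coding genes. H3K27ac, found at 20% of all coding promoters, lay at the promoter of 6 of 13 hepatocyte marker genes (Alb, Afp and Trf among them). It lay at that of 1 of 13 markers of other liver cells (Krt19). H3K4me1, found at 11.9% of promoters, went the other way. It lay at 1 of the 13 hepatocyte markers (Foxa2) and 3 of the 13 others (Krt19, Krt7 and Epcam). No list lay at the promoters of the hepatocyte genes Ttr, Apoa1, Apob, Serpina1a and Foxa1.

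KAP1 covered the 5′ end of 3 of the 10 receptor genes, Nr1h3, Esrra and Nr1d1, compared with 15.7% of all coding promoters. H3K27ac lay at the promoters of Nr1h4, Nr1h3, Nr5a2 and Nr1d1 (4 of 10, background 20%), and H3K4me1 at those of Nr1h4, Nr1i3, Nr5a2 and Nr1d1 (4 of 10, background 11.9%). These counts fell to 1 for H3K27ac (background 3.51%) and 2 for H3K4me1 (background 2.68%) where at least 250 bp had to overlap, and H3K27ac lay at 2 promoters (background 11.4%) with the wider regions of its list alone. No receptor promoter carried H3K9me3 (0 of 10, background 5.24%). PolII was called at the promoters of Nr1h3 and Esrra in the control (2 of 10, background 13.1%) and at the same pair under Kap1 KD (2 of 10, background 23.3%). In each condition this fell to 1 with an overlap of at least 250 bp (background 11.2% in the control and 20% under Kap1 KD), above the median score of the list (7.10 and 15.4%), and without Nr1h3. PolIII was called at the promoter of Nr1i3 in the control (1 of 10, background 0.344%) and at none under Kap1 KD (0 of 10, background 0.134%). The promoters of Ppara, Rxra, Nr1i2 and Nr0b2 carried no region of any list (4 of 10, background 58.5%).

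**Figure D1:**
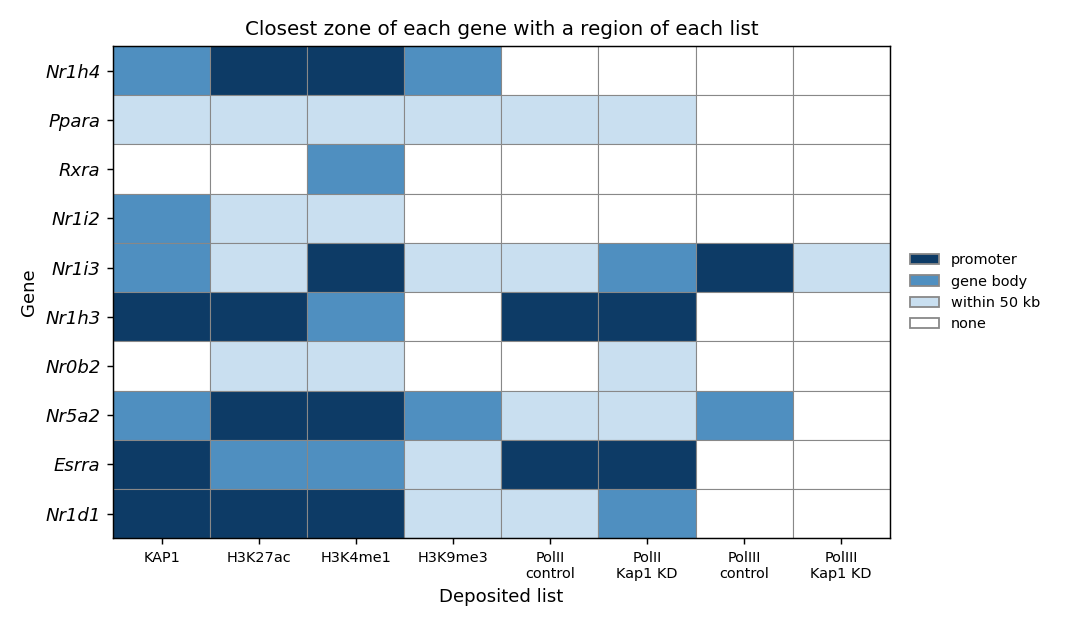
The 10 receptor genes (rows) against the 8 lists (columns), shaded by the closest zone of the gene in which a region of that list lay: promoter, gene body, within 50 kb or none. KAP1 lay at the promoters of Nr1h3, Esrra and Nr1d1, PolII at those of Nr1h3 and Esrra in both conditions, and the row of Rxra is empty apart from H3K4me1.

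In the gene bodies KAP1 lay in 6 of 10 genes (background 23.7%), H3K27ac in 5 (41.0%), H3K4me1 in 7 (50.5%) and H3K9me3 in 2 (23.2%). At Nr1h3 and Nr1d1 the KAP1 peak was the promoter peak reaching into the body. The KAP1 count was 4 outside 1000 bp of the 5′ end, with at least 250 bp of overlap (18.6%) and above the median score (13.2%). For H3K9me3 the count was 1 with that overlap (17.4%) and above the median width (16.5%). PolII lay in the bodies of Nr1h3 and Esrra in the control (2 of 10, background 14.9%) and of Nr1i3, Nr1h3, Esrra and Nr1d1 under Kap1 KD (4 of 10, background 27.2%). The control count was 1 outside 1000 bp of the 5′ end, with at least 250 bp of overlap (11.5%) and above the median score (9.27%). With the Kap1 KD list shortened to its 5015 strongest peaks, the length of the control list, PolII lay in 2 bodies (background 15.8%) and at 1 promoter (background 12.3%) under Kap1 KD. PolIII lay in the bodies of Nr1i3 and Nr5a2 in the control (2 of 10, background 3.51%) and in none under Kap1 KD (0 of 10, background 0.572%). The 10 genes had a median length of 32.6 kb against 15.4 kb for all coding genes, and longer genes held regions more often. Among genes above 42.5 kb, 34.2% had KAP1 in the body, as had 3 of the 5 receptor genes in that class. Ppara and Nr0b2 had no region of any list at the promoter or in the body (2 of 10, background 33.4%). KAP1 accompanied by H3K27ac or H3K4me1 at the promoter was found at Nr1h3 and Nr1d1 (2 of 10, background 8.45%), and KAP1 in the body without KAP1 at the promoter was found at Nr1h4, Nr1i2, Nr1i3 and Nr5a2 (4 of 10, background 8.85%).

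Within 50 kb, KAP1 was present around 8 of 10 genes (background 56.0%), H3K27ac around 9 (75.5%), H3K4me1 around all 10 (79.5%) and H3K9me3 around 6 (66.8%). PolII was present around 6 genes in the control (37.5%) and 7 under Kap1 KD (56.2%), while control PolIII was present around 2 (11.6%) and Kap1 KD PolIII around 1 (3.72%). The genes with control PolIII, Nr1i3 and Nr5a2, are on chromosome 1, where 72.6% of genes had a control PolIII peak within 50 kb. With the Kap1 KD PolII list shortened to the control length, PolII lay around 4 of the 10 genes under Kap1 KD (background 34.4%). The median distance from the 5′ end to the nearest KAP1 peak was 12.9 kb for the 10 genes and 49.2 kb for all genes. For H3K27ac it was 2.09 kb against 12.5 kb, and for H3K4me1 0.431 kb against 5.09 kb. For H3K9me3 the order was the other way round, with 49.3 kb against 35.8 kb. The nearest PolII peak was at a median of 96.3 kb in the control and 22.9 kb under Kap1 KD, against 139 and 46.3 kb for all genes.

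**Figure D2:**
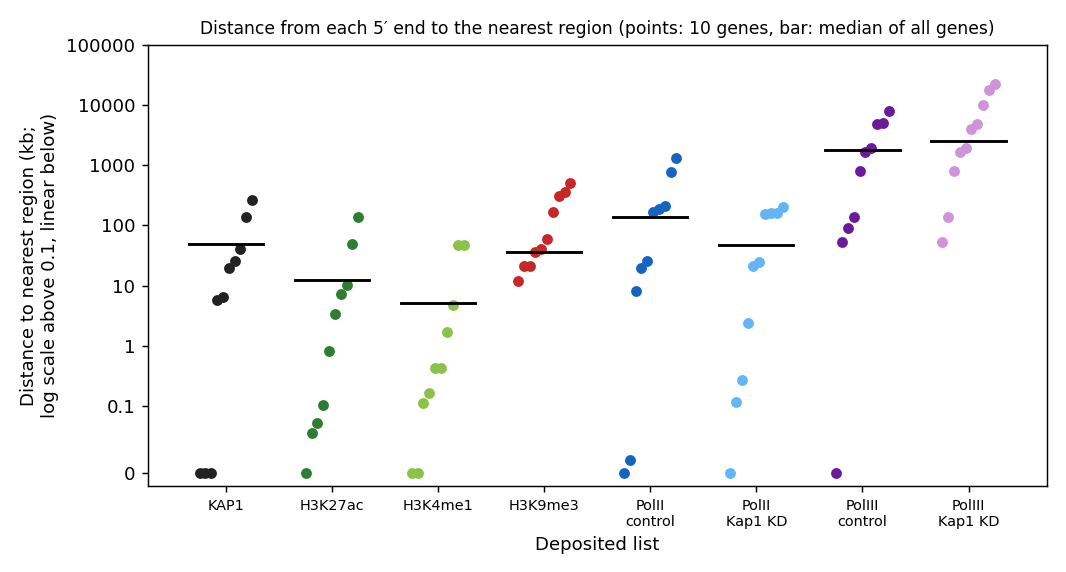
Distance from the annotated 5′ end of each of the 10 genes (points) to the nearest region of each list, in kb, on a scale that is logarithmic above 0.1 kb and linear below, with the median of all 22367 genes as a black bar. For KAP1, H3K27ac and H3K4me1, 8 of the 10 genes lay nearer than the median of all genes, and for H3K9me3 3 did.

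The bile acid genes were Nr1h4 (the bile acid receptor FXR), Nr0b2 (SHP, a receptor without a DNA-binding domain that represses bile acid synthesis) and Nr5a2 (LRH-1, an activator of the same pathway). Nr1h4 and Nr5a2 carried both active marks at the promoter and KAP1 in an intron, while Nr0b2 carried none of these. No PolII peak overlapped any of the 3 genes in either condition.

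Nr1h4 spans 88916979 to 88996330 on the minus strand of chromosome 10. One H3K4me1 region of 3557 bp, among the widest 2.92% of that list, ran from -765 to 2791 around its 5′ end, counted in the direction of transcription. An H3K27ac region lay from 60 to 791. An intronic KAP1 peak of 1241 bp with a score of 104 ran from 5689 to 6929. An H3K27ac region lay on each side of the centre of this peak, from -782 to -60 and from 215 to 1022 bp relative to it, and an H3K4me1 region lay from -1371 to -330. The H3K9me3 list had 2 regions near Nr1h4, of 159 bp in an intron and of 411 bp upstream, against a median width of 324 bp. The nearest PolII peak was 1332 kb away in the control and 198 kb away under Kap1 KD. In the Kap1 KD list no number was missing between the peaks on either side of Nr1h4, which lay 905 kb apart, and in the control list 1 was missing over 2764 kb. The other annotated starts of Nr1h4, 26927 and 26936 bp downstream, carried no region of any list.

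The middle of the intronic KAP1 peak of Nr1h4 (chr10:88989872-88990171 on mm9, minus strand) is shown because it is the KAP1 site of this gene, between its flanking H3K27ac regions. It has a GC content of 51.7% and no AGGTCA or GGGCGG on either strand, so it is printed without capitals.
Nr1h4 intronic KAP1 peak, middle 300 bases: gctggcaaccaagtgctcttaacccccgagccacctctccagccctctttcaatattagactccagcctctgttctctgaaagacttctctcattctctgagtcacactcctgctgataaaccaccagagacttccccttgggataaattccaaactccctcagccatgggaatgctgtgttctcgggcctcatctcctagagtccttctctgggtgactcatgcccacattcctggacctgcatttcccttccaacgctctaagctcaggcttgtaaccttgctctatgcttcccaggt

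Nr5a2, at 138740161 to 138857004 on the minus strand of chromosome 1, is the longest of the 10 genes (117 kb). Its 5′ end was covered by an H3K27ac region from -62 to 416 and an H3K4me1 region from -1152 to 371. Its body held 14 H3K27ac and 13 H3K4me1 regions, numbers reached or exceeded by 1.13 and 1.97% of all genes. These shares were not matched for length, and 91.3% of coding genes are shorter than Nr5a2. An intronic KAP1 peak from 59893 to 60837, with a score of 64.3, was arranged like that of Nr1h4. H3K27ac regions lay from -534 to -39 and from 299 to 903 bp of its centre, and H3K4me1 regions from -771 to -55 and from 246 to 1009. An H3K9me3 region of 581 bp lay from -1798 to -1218. Neither PolII list had a peak in Nr5a2, and no number was missing around the gene in either. Of the 4 KAP1 peaks in its surroundings, 2 overlapped H3K9me3, 149580 and 151857 bp downstream of the 5′ end, and had scores of 173 and 102.

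The same KAP1-centred stretch of Nr5a2 (chr1:138796490-138796789, minus strand) is given for comparison with Nr1h4, and the 250 bases upstream of the Nr5a2 5′ end (chr1:138857005-138857254, minus strand) because they held the only upstream AGGTCA among the 10 promoters, in capitals. The upstream stretch has a GC content of 42.4%, and the intronic one, which contains a long run of alternating g and t, has 48.0% and no half-site.
Nr5a2 intronic KAP1 peak, middle 300 bases: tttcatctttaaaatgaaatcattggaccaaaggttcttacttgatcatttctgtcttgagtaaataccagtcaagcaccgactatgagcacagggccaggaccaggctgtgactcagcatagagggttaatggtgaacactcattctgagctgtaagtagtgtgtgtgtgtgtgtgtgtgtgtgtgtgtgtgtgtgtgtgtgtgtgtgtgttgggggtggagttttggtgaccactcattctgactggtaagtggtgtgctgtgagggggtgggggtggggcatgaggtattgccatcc
Nr5a2, 250 bases upstream: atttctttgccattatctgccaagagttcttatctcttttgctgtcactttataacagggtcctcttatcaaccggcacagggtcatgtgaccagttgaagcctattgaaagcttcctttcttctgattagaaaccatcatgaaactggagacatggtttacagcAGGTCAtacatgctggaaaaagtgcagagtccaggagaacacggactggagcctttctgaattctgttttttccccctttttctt

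Control PolIII peaks lay in introns of Nr5a2 from 78199 to 79708 and from 112599 to 115096, with scores of 33 and 47, and none was called there under Kap1 KD, where 1 number was missing over the 10183 kb around the gene. Of all chromosome 1 genes, 30.5% had a control PolIII peak in the body, so that background, not the 3.51% over all genes, is the one for Nr5a2 and Nr1i3. What makes the control PolIII list dense on chromosome 1 was not tested.

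Nr0b2, at 133109291 to 133112451 on the plus strand of chromosome 4, had no region of any list in the gene. The nearest H3K27ac region began 3378 bp downstream of the 5′ end, just past the 3′ end of the gene, and the nearest H3K4me1 region began at 4771. The nearest KAP1 peak was 260 kb and the nearest H3K9me3 region 365 kb away. The single PolII peak within 50 kb, under Kap1 KD only (score 27), lay 20944 to 21390 bp downstream, over the promoter of Gpatch3. No number was missing from either PolII list at Nr0b2. None of the 9 bile acid genes listed as targets of these receptors had KAP1 (15.7% of all promoters), H3K27ac (20%) or PolII (13.1% in the control, 23.3% under Kap1 KD) at the promoter, and the same shares are the background of the other target lists. Among them, Klb carried H3K4me1, and 8 (such as Cyp7a1, the rate-limiting enzyme of bile acid synthesis, and Cyp8b1, which makes cholic acid) carried no list (58.5%).

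Nr1h3 encodes LXRα, the oxysterol receptor that induces cholesterol efflux and lipogenic genes. It spans 91024218 to 91042991 on the minus strand of chromosome 2. KAP1, H3K27ac and PolII in both conditions lay at its annotated 5′ end, but this is a promoter shared with Acp2 (lysosomal acid phosphatase), which starts 51 bp away on the other strand. The KAP1 peak ran from -534 to 490 with a score of 103, and an H3K27ac region lay to each side of its centre. PolII covered the 5′ end from -73 to 380 in the control (454 bp, score 30) and from -120 to 377 under Kap1 KD (498 bp, score 29). Over the 4453 overlapping pairs of the whole lists the median ratio of Kap1 KD to control width was 1.36.

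Of the 8 annotated transcripts of Nr1h3, only 1, a noncoding one, starts at this 5′ end. The 4 coding transcripts start 7683 to 7949 bp further downstream, and no region of any list lay within 250 bp of their starts. In the body, the widest H3K27ac region near the gene ran from 13813 to 16743 (2931 bp, among the widest 4.42% of its list), with H3K4me1 from 13922 to 14424 inside it. The nearest H3K9me3 region was 312 kb away. The 50 bases between the 5′ ends of Nr1h3 and Acp2 (chr2:91042992-91043041, minus strand), all within the KAP1 peak, are shown with the GC box GGGCGG, found here on the opposite strand, in capitals.
Nr1h3 to Acp2, 50 bases between the 5′ ends: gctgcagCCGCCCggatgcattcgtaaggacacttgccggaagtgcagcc

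Upstream of Nr1h3, the other KAP1 peak of the window (-35597 to -34167, score 184) lay over the promoters of Ddb2 and the noncoding A330069E16Rik with H3K27ac. H3K4me1 overlapped this KAP1 peak but neither promoter. PolII was called at both promoters under Kap1 KD (score 45) but not in the control. Among 8 sterol and lipid targets of the receptor, KAP1 lay at the promoters of Scd1 and Lpcat3, H3K27ac at those of Abca1, Srebf1 and Scd1, and PolII at 3 in the control (Abca1, Srebf1 and Scd1) and 4 under Kap1 KD (with Lpcat3).

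Nr1i2 (PXR) and Nr1i3 (CAR) encode the receptors for drugs and other foreign compounds. Nr1i2, at 38248409 to 38294910 on the minus strand of chromosome 16, carried KAP1 alone, whereas Nr1i3, at 173144101 to 173150832 on the plus strand of chromosome 1, lay in a stretch with regions of all 8 lists.

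The KAP1 peak of Nr1i2 lay in an intron, 19340 to 20309 bp from the 5′ end. Its score of 59.5 ranked it in the lowest part of the KAP1 list (86.0% of peaks scored as high or higher). No other list had a region within 2 kb of its centre, and 16.7% of all KAP1 peaks overlapped none of the 3 histone marks. Neither polymerase was called within 50 kb in either condition. No PolII number was missing over 809 kb in the control and 362 kb under Kap1 KD, 1 PolIII number was missing in each condition, over 19190 and 42617 kb, and the nearest H3K9me3 region was 496 kb away. The middle of this peak (chr16:38274936-38275235, minus strand) is printed as the only KAP1 site inside a receptor gene without a histone mark. It has a GC content of 38.7%, against a median of 50.3% over the middle 300 bases of all KAP1 peaks.
Nr1i2 intronic KAP1 peak, middle 300 bases: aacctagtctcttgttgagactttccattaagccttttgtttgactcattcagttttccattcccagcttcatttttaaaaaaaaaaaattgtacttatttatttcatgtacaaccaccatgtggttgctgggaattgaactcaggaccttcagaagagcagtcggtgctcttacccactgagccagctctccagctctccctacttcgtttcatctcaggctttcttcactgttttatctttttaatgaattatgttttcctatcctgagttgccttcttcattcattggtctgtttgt

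**Figure D3:**
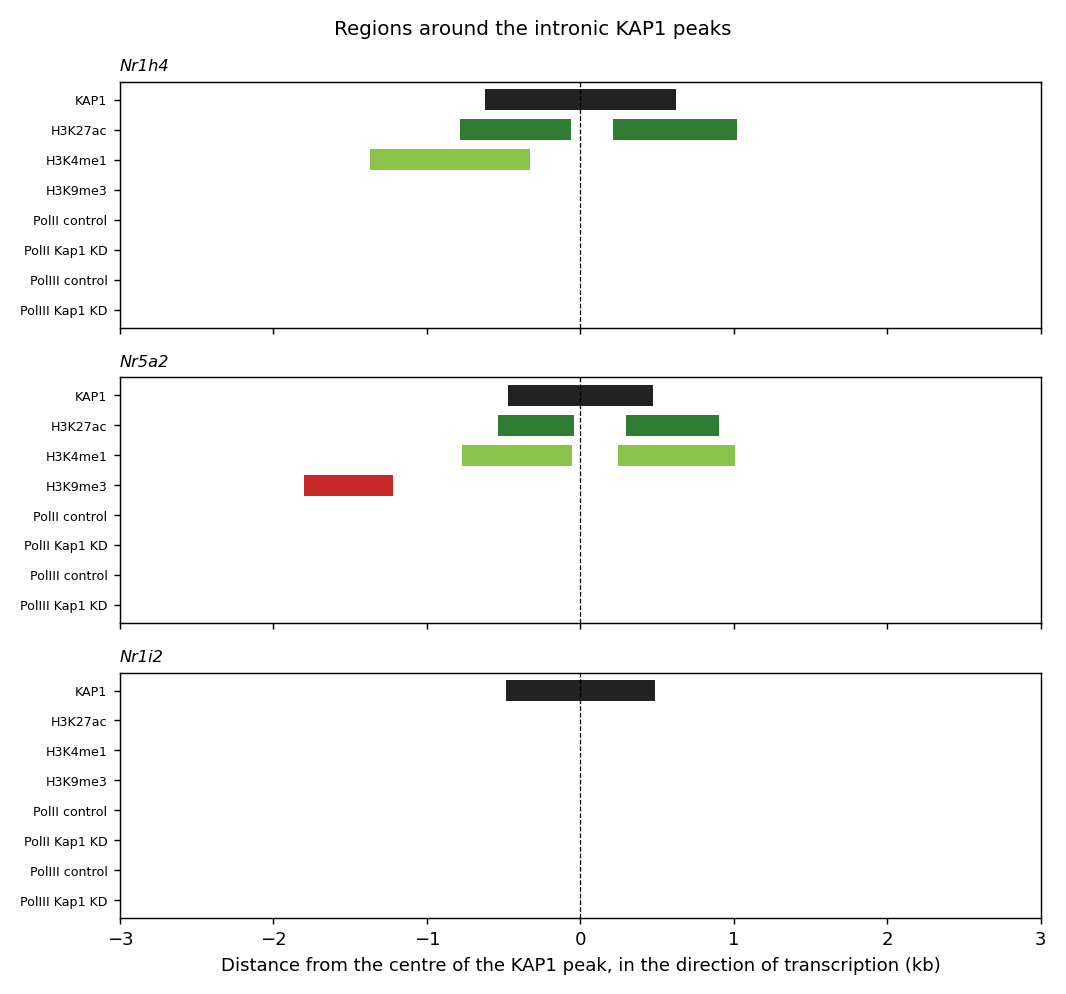
Regions of the 8 lists within 3 kb of the centre of the KAP1 peak in an intron of Nr1h4, Nr5a2 and Nr1i2, with distance in kb in the direction of transcription and 1 bar per region. In Nr1h4 and Nr5a2 the KAP1 centre lies in a gap between H3K27ac regions, in Nr1i2 no other list has a region, and no polymerase peak lies in any of the 3 panels.

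At Nr1i3, H3K4me1 from -1108 to -113 was the only histone mark at the promoter. In the control a PolIII peak of 15004 bp, with a score of 264 that placed it in the top 1.23% of its list, ran from -8374 to 6629 and so over the promoter and nearly the whole gene. It was not called under Kap1 KD, where no number was missing over 154 kb. Of chromosome 1 promoters, 2.26% had a control PolIII peak. Around Nr1i3 there were 9 control PolIII peaks covering 36.6% of the window, and 1 under Kap1 KD. For PolII the list without a peak was the control. A PolII peak of 2499 bp with a score of 120 lay at 2379 to 4877 under Kap1 KD, and none was called in the gene in the control, where no number was missing over 108 kb. Of Kap1 KD peaks with a score within 10% of this one, 37.4% had no control peak. Nr1i3 overlaps Tomm40l, transcribed from the other strand, and the reads of this peak cannot be assigned to either gene.

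The KAP1 peak at Nr1i3 (6429 to 9928, 3500 bp, score 110) overlapped the 3′ end of the gene. It lay over the promoter of Tomm40l together with H3K27ac and PolII of each condition. H3K4me1 regions overlapped this KAP1 peak but not the Tomm40l promoter. The KAP1 peaks of the window at Adamts4 and B4galt3 also lay with H3K27ac and H3K4me1. H3K4me1 covered the promoter of neighbouring Apoa2 (an HDL apolipoprotein) without KAP1 or PolII. Among 6 xenobiotic targets, none had KAP1 at the promoter, 3 had H3K27ac (Abcc2, Abcc3 and Por), 4 had H3K4me1 (these and Ugt1a1), Ugt1a1 had H3K9me3, Abcc2 had PolII under Kap1 KD, and the classical cytochromes Cyp3a11 and Cyp2b10 had no list.

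Ppara (the fatty acid receptor that drives hepatic oxidation) and Rxra (the shared heterodimer partner) had bare promoters. Ppara, at 85565413 to 85633249 on the plus strand of chromosome 15, had no region at any of its 6 annotated starts or in its body. The 2 KAP1 peaks in its window lay outside it, at -26888 to -25869 (score 70.5) and over the promoter of 2210021J22Rik downstream (score 78.3). The upstream KAP1 peak overlapped PolII in both conditions next to Mirlet7c-2 and Mirlet7b, the let-7 microRNA genes, and no histone mark. The control PolII peak over it was 1987 bp wide (score 85) and the Kap1 KD peak, from -35707 to -24888, 10820 bp (score 496). Further upstream, a control PolII peak of 6846 bp (score 198) ran from -41983 to -35138, away from KAP1. Under Kap1 KD it was overlapped by narrow peaks of 833 bp (score 47) and 237 bp (score 19) and, at its downstream end, by the 10820 bp peak. The widest and highest-scoring Kap1 KD peak of the window (22997 bp, score 1556) ran from -71015 to -48019 and overlapped PolII in the control, H3K27ac and H3K4me1. A Kap1 KD peak from -45518 to -43426 (score 100) had no control partner. Chromosome 15 held 9.85% of the control and 11.6% of the Kap1 KD PolII peaks against 3.56% of the coding genes, and the part of that density in the values around Ppara was not tested. At Ppara no PolII number was missing in either list.

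Rxra, at 27531960 to 27618477 on the plus strand of chromosome 2, had the emptiest 50 kb window of the 10 genes. Rxra had 3 H3K4me1 regions of 281 to 397 bp, 2 of them in introns, and no region of any other list within 50 kb. The nearest KAP1 and H3K27ac regions were 136 kb upstream, and the nearest PolII peaks 761 kb away in the control and 161 kb under Kap1 KD. No PolII number was missing over 1553 kb and 956 kb. None of its 6 annotated transcript starts carried a list. The promoter of Rxra has a GC content of 61.9% and that of Ppara 67.1%, higher than 64.8 and 80.5% of all promoters. Among 10 fatty acid oxidation targets of Ppara, 6 carried no list at the promoter. Of those named here, Cpt1a (the gate of mitochondrial fatty acid import) had KAP1 and H3K27ac at the promoter, and Acadm had KAP1. Angptl4 had H3K27ac and PolII of both conditions.

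Esrra encodes ERRα, an orphan receptor for mitochondrial genes, and spans 6985467 to 6996303 on the minus strand of chromosome 19. Its promoter combined KAP1 with PolII in both conditions and had no H3K27ac. KAP1 ran from -728 to 213 with a score of 117. PolII began just downstream, from 20 to 946 in the control (927 bp, score 40) and from 118 to 1363 under Kap1 KD (1246 bp, score 68). The nearest H3K27ac region lay from 811 to 1026 and H3K4me1 regions from -759 to -429 and from 978 to 3258, so KAP1 overlapped H3K4me1 upstream but not H3K27ac. A coding transcript that starts at 762 had H3K27ac, H3K4me1 and PolII of both conditions within 250 bp of its start and no KAP1. The 250 bases upstream of the 5′ end (chr19:6996304-6996553, minus strand), inside the KAP1 peak, have a GC content of 67.2% and 22 CpG, and the GC boxes on either strand are in capitals.
Esrra, 250 bases upstream: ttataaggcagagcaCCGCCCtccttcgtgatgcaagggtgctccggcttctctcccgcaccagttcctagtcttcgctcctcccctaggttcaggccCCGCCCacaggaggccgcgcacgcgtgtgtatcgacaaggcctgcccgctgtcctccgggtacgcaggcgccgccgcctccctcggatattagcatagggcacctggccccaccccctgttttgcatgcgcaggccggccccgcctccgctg

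PolII also lay at the 3′ end of Esrra, over the promoters of Prdx5 and Trmt112, with a width of 2677 bp and a score of 135 in the control and 3668 bp and 266 under Kap1 KD. The window of Esrra held 8 KAP1 peaks, of which 5 overlapped an active mark and 3 H3K9me3. At Gpr137 and Bad, and at Prdx5 and Trmt112, the KAP1 peaks overlapped H3K27ac, H3K4me1 and PolII of both conditions. Of these 4 promoters only that of Gpr137 carried H3K4me1. Downstream, 3 KAP1 peaks with scores of 338, 222 and 221 lay 21005 to 28196 bp from the 5′ end and overlapped H3K9me3, without an active mark or PolII. The main H3K9me3 region there was 4967 bp wide, among the widest 0.957% of the list. Of 4 mitochondrial targets of Esrra, KAP1 lay at the promoters of Cycs and Cox8a and PolII at those of Cycs and Atp5b in both conditions.

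Nr1d1 encodes REV-ERBα, the haem receptor that represses clock and metabolic genes. It lies at 98629246 to 98636647 on the minus strand of chromosome 11. Its promoter carried KAP1 and both active marks, and PolII was called at the gene under Kap1 KD but not in the control. KAP1 ran from -1093 to 487 with a score of 198, the highest of the 3 bound promoters and in the top 24.0% of the list. H3K27ac regions ended at -105 and began again at 128, and H3K4me1 regions ended at -162 and began at 169, so the 5′ end itself lay in a gap of both marks within the KAP1 peak. Under Kap1 KD a PolII peak of 1584 bp (score 101) ran from -1851 to -268, just outside the promoter window and overlapping KAP1 and both marks. A second of 919 bp (score 47) lay in the gene from 1652 to 2570, over a further H3K27ac and H3K4me1 pair, and another (score 38) lay from -8419 to -7660. The control list had no PolII peak between -19320 and the downstream end of the gene. No number was missing between the control peaks on either side, which were 112 kb apart.

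The absence of a control call at Nr1d1 was not rare for peaks of these scores. Of the 731 Kap1 KD peaks with a score within 10% of 101, 42.8% had no control peak, and for the peak in the gene the share was 75.6%. The peak with score 101 was among the 5015 strongest of the Kap1 KD list, so it remained when both lists were cut to equal length, and the other 2 did not. Further upstream the same neighbourhood had PolII in both conditions at Msl1, where the score was 68 in the control and 231 under Kap1 KD.

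The 250 bases upstream of the Nr1d1 5′ end (chr11:98636648-98636897, minus strand) were wholly within the KAP1 peak and are shown for comparison with Esrra. They have a GC content of 56.0% and 9 CpG, with no AGGTCA or GGGCGG.
Nr1d1, 250 bases upstream: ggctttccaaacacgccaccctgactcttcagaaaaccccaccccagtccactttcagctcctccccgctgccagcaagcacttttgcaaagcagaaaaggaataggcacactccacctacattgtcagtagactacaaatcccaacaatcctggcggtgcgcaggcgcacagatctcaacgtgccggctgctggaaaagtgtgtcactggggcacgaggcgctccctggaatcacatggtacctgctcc

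Upstream of Nr1d1, 2 further KAP1 peaks (-14210 to -13086, score 95.8, and -13066 to -11452, score 79.9) lay with H3K27ac and H3K4me1 and without PolII, next to an H3K27ac region of 2837 bp from -11159 to -8323. A KAP1 peak 40518 bp downstream overlapped H3K9me3. The 3′ end of Nr1d1 overlaps that of Thra, the thyroid hormone receptor gene on the other strand, whose promoter had H3K4me1 and no KAP1 or PolII. The 5 clock genes listed as targets of REV-ERBα (Arntl, Clock, Npas2, Cry1 and Nfil3) had no region of any list at the promoter.

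**Figure D4:**
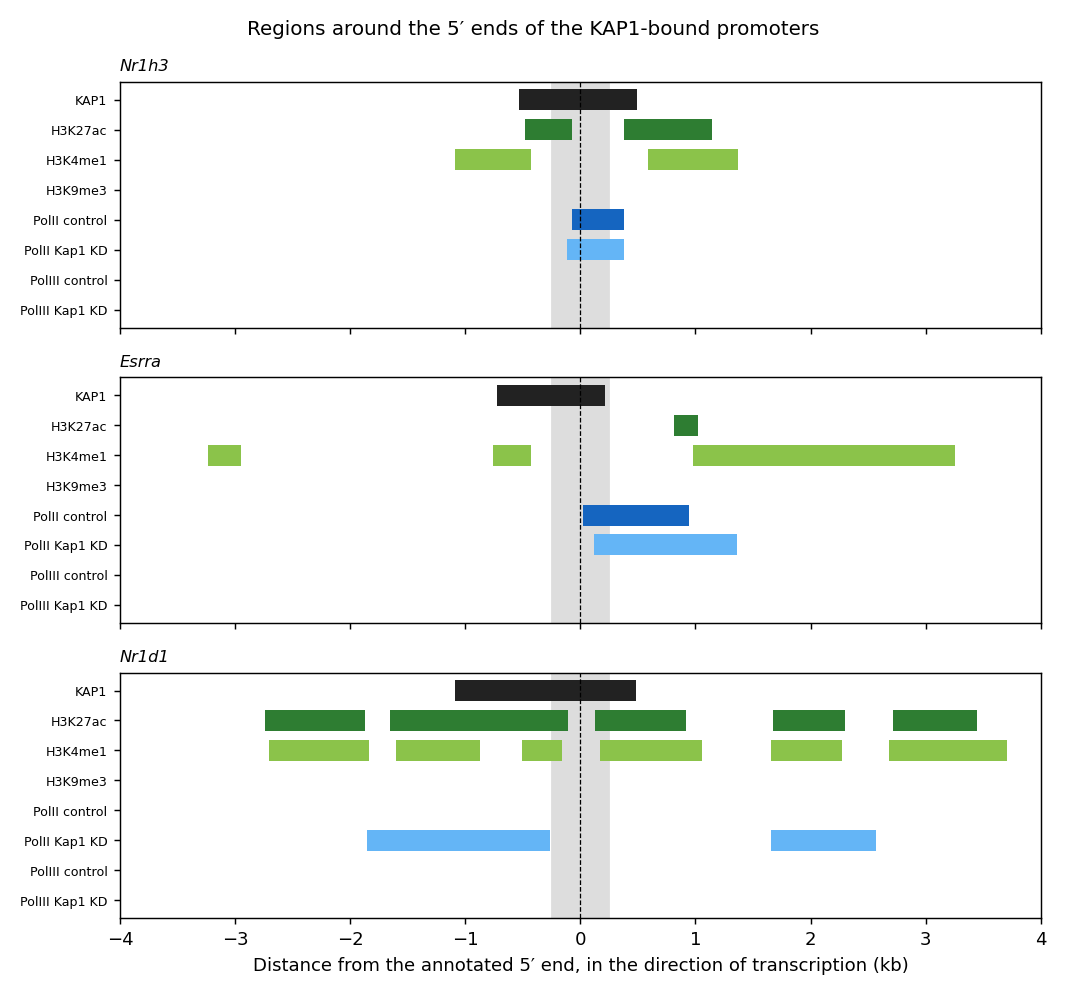
Regions of the 8 lists within 4 kb of the annotated 5′ ends (dashed line) of Nr1h3, Esrra and Nr1d1, with distance in kb in the direction of transcription, 1 bar per region and the promoter window in grey. KAP1 covers each 5′ end, PolII covers or borders those of Nr1h3 and Esrra in both conditions, and at Nr1d1 PolII bars appear for Kap1 KD only.

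Over all windows there were 27 KAP1 peaks, 3 centred in introns of the receptor genes and 24 outside them. An active mark without H3K9me3 accompanied 18 of them (43.2% of the whole KAP1 list), H3K9me3 without an active mark 6 (35.4%), no mark 3 (16.7%), and both none (4.68%). The 6 peaks overlapping H3K9me3 lay around Esrra (3), Nr5a2 (2) and Nr1d1 (1), all downstream of the genes. Of the 16 peaks that overlapped H3K27ac, 5 had their centre in a gap with H3K27ac on each side within 1000 bp, around Nr1h4, Nr1h3, Nr5a2 and Nr1d1 (2), compared with 41.3% of such peaks over the genome. The 10 genes shared their windows with the 5′ ends of 32 other coding genes, of which 10 had KAP1 (15.7% of all promoters) and 11 had control PolII (13.1%) at the promoter.

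The windows held 16 control PolII peaks and 30 from the Kap1 KD library. Of the control peaks, 14 (87.5%) overlapped a Kap1 KD peak, near the 86.1% of the whole list. Of the Kap1 KD peaks, 16 (53.3%) overlapped a control peak, against 33.3% of the whole list, and 14 did not. These 14 were around Nr1i3 (5), Nr1d1 (4) and, with 1 each, Ppara, Nr1h3, Nr0b2, Nr5a2 and Esrra. No control number was missing at any of them, and 4 of the 14 were among the 5015 strongest of their list. Of 16 overlapping pairs, 11 were wider under Kap1 KD (68.8%, against 75.3% of all pairs), with the same median ratio of 1.36. For PolIII, 1 of 14 control peaks was called again under Kap1 KD (7.14%, against 6.75% of the whole list), and these 14 were all on chromosome 1.

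**Figure D5:**
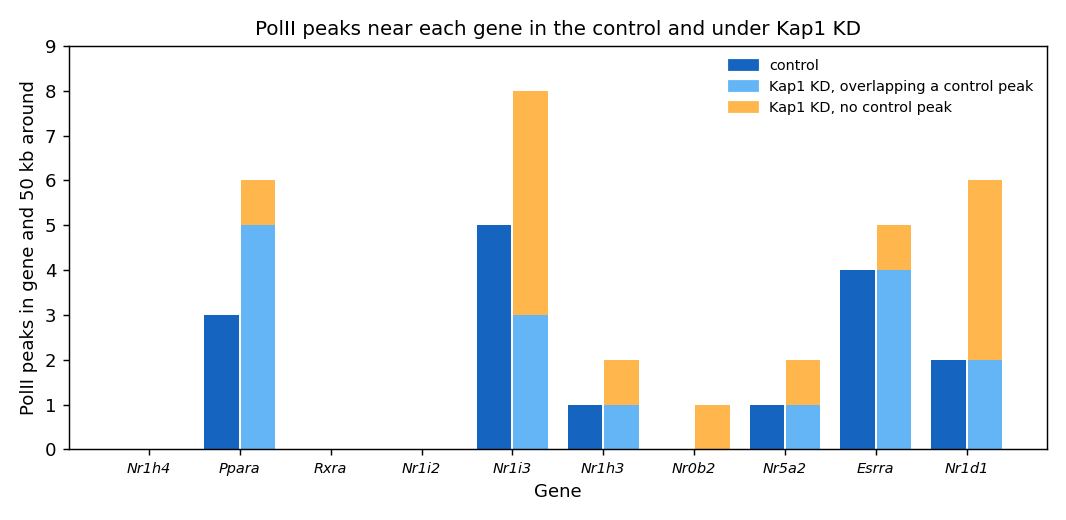
Number of PolII peaks in each gene and 50 kb to each side, in the control (dark bars) and under Kap1 KD (light bars, with the part that overlapped no control peak in orange). The Kap1 KD bar, from a list 2.56 times longer, is higher at the 7 genes that have any peak. Nr1i3 and Nr1d1 hold 9 of the 14 peaks without a control partner, and Nr1h4, Rxra and Nr1i2 have none in either condition.

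The promoters also differed in base composition. Promoters with a GC content of at least 50% and an observed to expected CpG ratio of at least 0.6 made up 47.6% of all promoters and included Ppara, Nr1h3 and Esrra. KAP1 lay at 29.0% of such promoters and 3.71% of the others, and PolII at 24.6 and 2.78% in the control and 42.1 and 6.27% under Kap1 KD. Both receptor promoters with PolII, and 2 of the 3 with KAP1, were in the CpG-rich class. Nr1d1, with KAP1, had a ratio of 0.531, just under that limit. H3K4me1 lay at none of the 3 CpG-rich receptor promoters (13.5% of the class) and at 4 of the other 7 (10.3%), and H3K27ac at 1 (30.6%) and 3 (10.3%). Nr5a2 had the lowest values, with a GC content of 40.5% and a ratio of 0.146.

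The motif search covered both strands of the 501 bp promoter windows. The half-site AGGTCA occurred in the windows of Ppara, Nr1i2, Nr1h3 and Nr5a2 (4 of 10), compared with 22.2% of all promoters, and it lay downstream of the 5′ end in all but Nr5a2, where it was at -85. The longer word TCAAGGTCA, which contains the half-site and is the site of Esrra and Nr5a2 products, was in none (0.604% of all promoters). AGGTCA repeated directly with 1, 2 or 4 bases between, or as an inverted repeat with 1 base between, was also in none, and each form was in at most 0.0715% of all promoters. The E-box CACGTG was in the windows of Nr1i3 and Nr0b2 (10.4%), and the GC box GGGCGG in those of Ppara, Rxra, Nr1h3, Nr0b2 and Esrra (52.6%). TATAAA was in those of Rxra, Nr0b2 and Nr5a2 (16.7%), starting at -21, -28 and -202. AGGTCA was absent from the middle 300 bases of the 3 intronic KAP1 peaks and present in those of 14.6% of all KAP1 peaks.

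Among the 39 other nuclear receptor genes of the mouse, KAP1 lay at 7 promoters (such as Ppard, Pparg, Nr1d2 and Rxrb), which is 17.9% against 15.7% of all promoters. H3K27ac lay at 6 and H3K4me1 at 6 (15.4% each, against 20 and 11.9%), and no list at 20 (51.3% against 58.5%). PolII lay at 3 in the control (Rxrb, Nr2f6 and Nr3c1; 7.69% against 13.1%) and at 7 under Kap1 KD (17.9% against 23.3%). Nr1d2, the paralogue of Nr1d1, also carried KAP1, without H3K27ac or H3K4me1, and neither gene had PolII at the promoter. Of 19 receptor coregulator genes, KAP1 lay at Ncoa3 and Ncor1 (10.5% against 15.7%), H3K27ac at 6 (31.6% against 20%), and PolII at 8 in the control (42.1% against 13.1%) and 10 under Kap1 KD (52.6% against 23.3%). No test was made of these counts.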

How the data were processed

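ChIP-seq had been done on 13 samples of Hepa 1-6 cells. The authors mapped reads with Bowtie to mm9, used MACS for KAP1 and PolII, with input as the reference, and ChIP-part for the histone marks. The PolIII caller is not given in the sources used here. The deposited lists, 1 per library, hold the positions of the called regions, and the KAP1, PolII and PolIII lists a score by the authors, whose meaning for the polymerases is not stated. No counts were used, so depth is unknown and no interval could be given.

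Region starts were converted to counting from 1. No region of the 8 lists reached beyond a chromosome end of NCBIM37. Overlap of at least 1 bp with a promoter, gene body or window was counted in Python 3.11.15 and checked on simulated regions against bedtools 2.31.1. The share of all 22367 coding genes with a region stands beside the counts of members, except for a few alternatives. At the promoter it is the background of the other lists. With 1 library per group no test was made. Ranks follow the score, or the width for the histone marks. Alternative windows, overlaps, starts and shortened lists were tried.

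All 10 members are named. Other genes are named where a counted region lay over their promoter, and up to 4 of each gene list in list order. Genes beyond these, beside counts of 5 or fewer, and Nr1d2, were named after their values were seen. Results on a few genes are not reported here. The members and lists were chosen with earlier results of these data known.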

Additional observations from a re-analysis of the deposited data

How the results depend on the processing

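Of 102 alternatives to the 24 counts of receptor genes, 79 stayed within 1.5 times the reported count. A reported count of 0 could not fall under a stricter setting, so some of the 79 were fixed in advance. Counts of KAP1 were among the 79 under every alternative run, although the KAP1 body count fell from 6 to 4, at that limit, in each of its alternatives. With a minimum overlap of 250 bp the number of genes was 1 for H3K27ac, 2 for H3K4me1, 1 for control PolII and 1 for Kap1 KD PolII at the promoter, and 1 for H3K9me3 and 1 for control PolII in the body. Above the median score or width of each list, the promoter count was 2 for H3K27ac (11.4%) and 1 for PolII in each condition (7.10 and 15.4%). In the body the count was 1 for H3K9me3 (16.5%), 1 for control PolII (9.27%) and 2 for Kap1 KD PolII (18.9%). Within 50 kb it was 4 for Kap1 KD PolII (39.8%) and 0 for Kap1 KD PolIII (2.13%). With the Kap1 KD PolII list shortened to the length of the control list, the count was 1 at the promoter (12.3%) and 2 in the body (15.8%). Within 50 kb it was 4 (34.4%), against 6 genes and 37.5% in the control. With the control PolIII list shortened to that of Kap1 KD it was 1 in the body (0.702%) and 1 within 50 kb (3.59%). These 2 shares are over all genes, not chromosome 1 alone. More than 1000 bp from the 5′ end, control PolII lay in 1 body, and within 20 kb Kap1 KD PolIII lay around 0 genes. Without Nr1h3, whose promoter is shared with Acp2, PolII lay at 1 promoter in each condition, an alternative chosen after seeing the data. With a wider promoter window the Kap1 KD PolII count was 3, Nr1d1 included. No paired analysis was possible because each antibody and condition had 1 library. The depth of the libraries is unknown, so a gene without a region cannot be told from one below the calling threshold.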
